A study of Mus musculus with 3 samples.

Results

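Single L929 cells carrying a knockdown of Rrm2 differed widely in the RNA of the chemokine gene Cxcl1, and these cells are described here by that difference. The 10 knock cells read by CBTi-seq were ranked by Cxcl1 in CPM (counts scaled to a common total per cell), and the 5 highest (Cxcl1-high knock cells) were set against the 5 lowest (Cxcl1-low knock cells) across the other genes. They are 10 of the 20 columns of the CBTi-seq table and of the 36 columns of the whole series. Cxcl1 chose the groups, so its own values are a description and it is left out of every count of genes.

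L929 is a mouse fibroblast line from connective tissue. In the series, the CBTi-seq protocol and a 3' end method were each applied to Rrm2-knockdown and control L929 cells. Both groups used here are cells named knock, and 10 CBTi-seq cells named control stand beside them. The title speaks of gene-edited cells. The labels do not state how the knockdown was made, what control cells received, the culture time, or whether cells came from separate cultures or clones. Per the labels' protocols, cells were trypsinized, picked one by one with a capillary, copied into cDNA by oligo dT priming and template switching, and put through 20 cycles of PCR. All 20 columns belong to 1 sample, so the groups have no replicates. No difference was tested, and intervals cover counting error only.

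Cxcl1 and its neighbour Cxcl2 encode secreted chemokines that draw neutrophils through the receptor Cxcr2. Fibroblasts make them when cytokines, microbial products or damage activate NF-kB, a family of transcription factors held in the cytoplasm by inhibitors such as the product of Nfkbia. NF-kB also turns on its own inhibitors, which limits the response. Rrm2 encodes the small subunit of ribonucleotide reductase, the enzyme that makes deoxyribonucleotides for DNA synthesis.

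Cxcl1 (ENSMUSG00000029380) lies at chr5:90891241-90893115 and Cxcl2 (ENSMUSG00000058427) at chr5:90903871-90905938, both on the plus strand of GRCm38. The bases from 250 to 31 upstream of the RefSeq start of each gene are shown because Cxcl2 had the largest ratio among inflammatory members at 20 CPM or more. They lie at chr5:90890995-90891214 and chr5:90903649-90903868 of GRCm38.p6, on the plus strand. Capitals mark matches of the NF-kB motif, spelled GGG, any 2 bases and TTTCC, searched on both strands.

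Cxcl1: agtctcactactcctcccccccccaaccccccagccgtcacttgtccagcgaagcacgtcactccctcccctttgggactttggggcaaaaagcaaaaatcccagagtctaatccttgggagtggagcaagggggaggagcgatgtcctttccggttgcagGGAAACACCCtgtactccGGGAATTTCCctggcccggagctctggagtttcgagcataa

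Cxcl2: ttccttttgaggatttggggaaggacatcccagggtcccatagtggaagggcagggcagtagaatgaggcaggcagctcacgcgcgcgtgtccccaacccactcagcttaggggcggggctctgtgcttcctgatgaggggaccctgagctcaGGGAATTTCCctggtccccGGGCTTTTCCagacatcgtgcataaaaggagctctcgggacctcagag

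Each window held 2 matches. In Cxcl1 they began 89 bases (read on the minus strand) and 71 bases before the start, and in Cxcl2 97 and 78 bases before it. Of 32851 RefSeq windows of 220 bases, 1.17% held at least 1 match and 6 windows (0.0183%) held 2 or more. A match is a string of letters and no measured binding.

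Cxcl1 stood at 406.3, 261.2, 210.3, 116.9 and 111.2 CPM in the Cxcl1-high knock cells, which were knock cells 10, 2, 3, 8 and 5. It stood at 100.9, 91.5, 77.8, 74.1 and 25.8 CPM in the Cxcl1-low knock cells, which were knock cells 1, 9, 6, 4 and 7. Values by cell are given in this order throughout. The cells formed a gradient with no gap at the boundary: knock cell 5 (52 counts, 83.0 to 145.8 CPM) was 1.1-fold above knock cell 1 (20 counts, 61.6 to 155.8 CPM), and their 95% intervals overlapped. Knock cell 10 was 15.7-fold above knock cell 7. Summed over cells, Cxcl1 was at 245.9 CPM in the Cxcl1-high cells and 69.6 CPM in the Cxcl1-low cells, against 21.7 CPM in the control cells. Control cells ranged from 0 to 94.8 CPM with a median of 19.9 CPM. All 10 knock cells lay above that median, and knock cell 7 lay nearest to it.

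Depth moved with the groups. The Cxcl1-high cells held 225913 to 735871 counts (median 375601) and the Cxcl1-low cells 153051 to 458704 (median 231373), and the control cells 41570 to 846819. Knock cell 10 alone held 34.1% of all counts of the Cxcl1-high cells, 56.4% of their Cxcl1 counts and 79.7% of their Cxcl2 counts. Over the 10 knock cells, which belong to 1 sample, the Spearman correlation of total count with Cxcl1 was 0.28. A level of 3 counts corresponded to 1.39 CPM over the Cxcl1-high cells and 2.22 CPM over the Cxcl1-low cells. No gene passed 638 counts in a cell, although totals differed widely, so levels of the most abundant genes may be compressed in deep cells. Of 20 fibroblast markers, 14 had counts in knock cells, with a summed level of 2651 to 3761 CPM in the Cxcl1-high cells, 3381 to 4757 CPM in the Cxcl1-low cells and 2677 to 4818 CPM in the control cells. Thy1, Fap, Lum, Dcn, Postn and Acta2 had no row in the table or no count in knock cells. Of 16 leukocyte markers, 6 had a row in the table, Ptprc and Adgre1 not among them, and these summed to 10.6 to 43.5 CPM in the Cxcl1-high cells and 35.5 to 54.5 CPM in the Cxcl1-low cells, against 21 to 181.0 CPM in the control cells. Of 6 endothelial markers 1 had a row, with no count in knock cells, and the 3 of 8 epithelial markers with a row summed to at most 5.05 CPM in a knock cell.

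Rrm2, the targeted gene (ENSMUSG00000020649, chr12:24708241-24714146, plus strand), did not follow Cxcl1. It stood at 282.7, 354.1, 370.1, 330.8 and 408.4 CPM in the Cxcl1-high cells and at 489.4, 398.6, 384.7, 324.8 and 316.0 CPM in the Cxcl1-low cells. The groups overlapped, and the Spearman correlation with Cxcl1 was -0.08 over the 10 knock cells. The summed levels were 340.5 CPM in the Cxcl1-high cells and 365.5 CPM in the Cxcl1-low cells, a log2 ratio of -0.10 with an interval of -0.27 to 0.07. Both lay below the 480.9 CPM of the control cells, whose range was 356.1 to 652.2 CPM.

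Few genes differed by much between the groups. Of 5026 genes that averaged 50 CPM or more over both groups, 17 (0.338%) were at least 2-fold higher in the Cxcl1-high cells and 5 (0.0995%) at least 2-fold lower. Of these genes 58.3% lay above a log2 ratio of 0 and 41.7% below it, around a median of 0.06. Scaling by TMM gave 8 higher genes and 9 lower ones, and scaling by median of ratios gave 8 higher and 10 lower, so the balance of the directions depended on the scaling. In 45 genes (0.895%) all 5 Cxcl1-high cells lay above all 5 Cxcl1-low cells, and in 23 genes (0.458%) all lay below. A like split of the control cells, their 5 highest in Cxcl1 over their 5 lowest, gave 33 genes at least 2-fold higher (0.611%) and 50 lower (0.926%) of 5400. In that split 43% of genes at 20 CPM were higher. A split by Cxcl1 among knock cells therefore held no more genes 2-fold apart than one among control cells, where the depths differed more.

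The inflammatory list as a whole did not separate with Cxcl1. It held 69 NF-kB targets and secreted inflammatory factors beside Cxcl1, of which 48 had a row in the table and 22 reached a mean level of 20 CPM. Of these 22, 16 were higher in the Cxcl1-high cells and 6 lower, with a median log2 ratio of 0.19, where all 8135 genes at 20 CPM had 59.6% higher and a median of 0.08. One member, Cxcl2, was at least 2-fold higher, where 1.67% of all genes at this level were, and none was 2-fold lower (0.553% of all genes). In no member did the groups fail to overlap, against 0.836% of genes above and 0.344% below. The summed level of the list was 2612 to 3707 CPM in the Cxcl1-high cells and 2815 to 3692 CPM in the Cxcl1-low cells, against 1347 to 3557 CPM in the control cells. Without knock cell 10 the median was 0.053 and 12 of 20 members were higher. All genes at 20 CPM then had 51.1% higher and a median of 0.0097.

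Among the chemokines at 20 CPM or more, Cxcl2 had the largest ratio, which rested on knock cell 10. Cxcl2 was at 127.7, 39.8, 32.0, 5.70 and 2.14 CPM in the Cxcl1-high cells and at 45.4, 6.53, 13.0, 10.9 and 3.22 CPM in the Cxcl1-low cells. Knock cell 10 was far above the rest, knock cell 1 of the Cxcl1-low group came next, and the groups overlapped. The summed levels were 54.7 CPM in the Cxcl1-high cells and 14.1 CPM in the Cxcl1-low cells, against 6.99 CPM in the control cells. The log2 ratio was 1.96 (95% interval 1.25 to 2.74), and without knock cell 10 it was 0.27. The Spearman correlation of Cxcl2 with Cxcl1 was 0.53 over the knock cells and 0.04 over the 10 control cells, where Cxcl2 reached at most 25.5 CPM.

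Ccl2, which draws monocytes, was at 274.5, 137.2, 226.3, 102.7 and 367.8 CPM in the Cxcl1-high cells. It was at 267.4, 261.4, 172.9, 226.7 and 190.3 CPM in the Cxcl1-low cells, so the Cxcl1-high cells held both the highest and the lowest values. The log2 ratio was 0.16 (-0.05 to 0.37), against a level of 145.3 CPM in the control cells. Its neighbour Ccl7 had a log2 ratio of -0.06 (-0.23 to 0.12), with 150.5 to 399.5 CPM in the Cxcl1-high cells and 245.1 to 412.0 CPM in the Cxcl1-low cells. Ccl9 was lower in the Cxcl1-high cells, at 63.1 CPM against 98.4 CPM in the Cxcl1-low cells (log2 ratio -0.64, -1.0 to -0.29). Without knock cell 7, the Cxcl1-low cell with 183.8 CPM, the value for Ccl9 was -0.21.

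Lcn2 and Csf1, abundant secreted factors outside the chemokines, overlapped widely between the groups. Lcn2, which binds bacterial iron carriers, stood at 269.1, 177.1, 431.3, 108.4 and 173.2 CPM in the Cxcl1-high cells and at 85.8, 450.8, 341.4, 137.3 and 199.9 CPM in the Cxcl1-low cells. Its highest and lowest values were both in Cxcl1-low cells, and its log2 ratio was 0.17 (-0.04 to 0.38). Csf1, the macrophage growth factor, had a log2 ratio of -0.04 (-0.17 to 0.09). Lcn2, at 93.5 CPM in the control cells, thus varied among knock cells without following Cxcl1 (Spearman correlation 0.04).

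Genes of IkB proteins and of other regulators of NF-kB took both directions. Nfkbia, which encodes the inhibitor IkB-alpha, was at 202.5, 199.2, 122.5, 122.6 and 164.7 CPM in the Cxcl1-high cells and at 141.3, 137.2, 151.3, 117.7 and 106.4 CPM in the Cxcl1-low cells. The 3 highest values were in Cxcl1-high cells, the other 2 of that group lay within the Cxcl1-low range, and the log2 ratio was 0.40 (0.13 to 0.67), or 0.23 without knock cell 10. The Spearman correlation of Nfkbia with Cxcl1 was 0.66 over the knock cells and -0.37 over the control cells, where its level was 206.9 CPM. Nfkbib, the related inhibitor IkB-beta, had a log2 ratio of 0.59 (0.26 to 0.93), and Tnip1, which dampens signalling to NF-kB, of 0.74 (0.30 to 1.21). Without knock cell 10, Tnip1 had a log2 ratio of 0.32. Zc3h12a, a nuclease that destroys cytokine mRNA, was at -0.31 (-0.89 to 0.29) and Nfkbiz, an atypical IkB protein, at 0.03 (-0.45 to 0.52), and Cyld, given with the signalling chain, was lower. Nfkbib and Tnip1 overlap annotated genes on the opposite strand, and the use of strand in counting is not given, so reads of the partners cannot be told apart.

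The other members ran from small ratios in either direction to moderate positive ones. Plaur, the urokinase receptor, had a log2 ratio of 0.45 (0.11 to 0.79), and Ptges, a prostaglandin E synthase, of 0.35 (0.02 to 0.69). Il4ra, an interleukin 4 receptor chain, was at 0.63 (-0.03 to 1.32) and at -0.12 without knock cell 10. Tnfaip2 (0.36, -0.11 to 0.85), the zinc transporter gene Slc39a14 (0.30, -0.15 to 0.77) and the NF-kB subunit gene Nfkb2 (0.29, -0.24 to 0.85) had intervals that include 0. Sod2, the mitochondrial superoxide dismutase, was at 0.12 (-0.06 to 0.31), Ier3 at 0.09 (-0.12 to 0.30) and the NF-kB subunit gene Nfkb1 at -0.08 (-0.52 to 0.38). Cebpb, a transcription factor of the acute phase response, was at -0.18 (-0.37 to 0.00), with its highest value in knock cell 1. Intervals above 0 were found for 6 of the 22 members and an interval below 0 for 1, where 18.2% and 9.97% of all genes at this level had one.

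**Figure D1:**
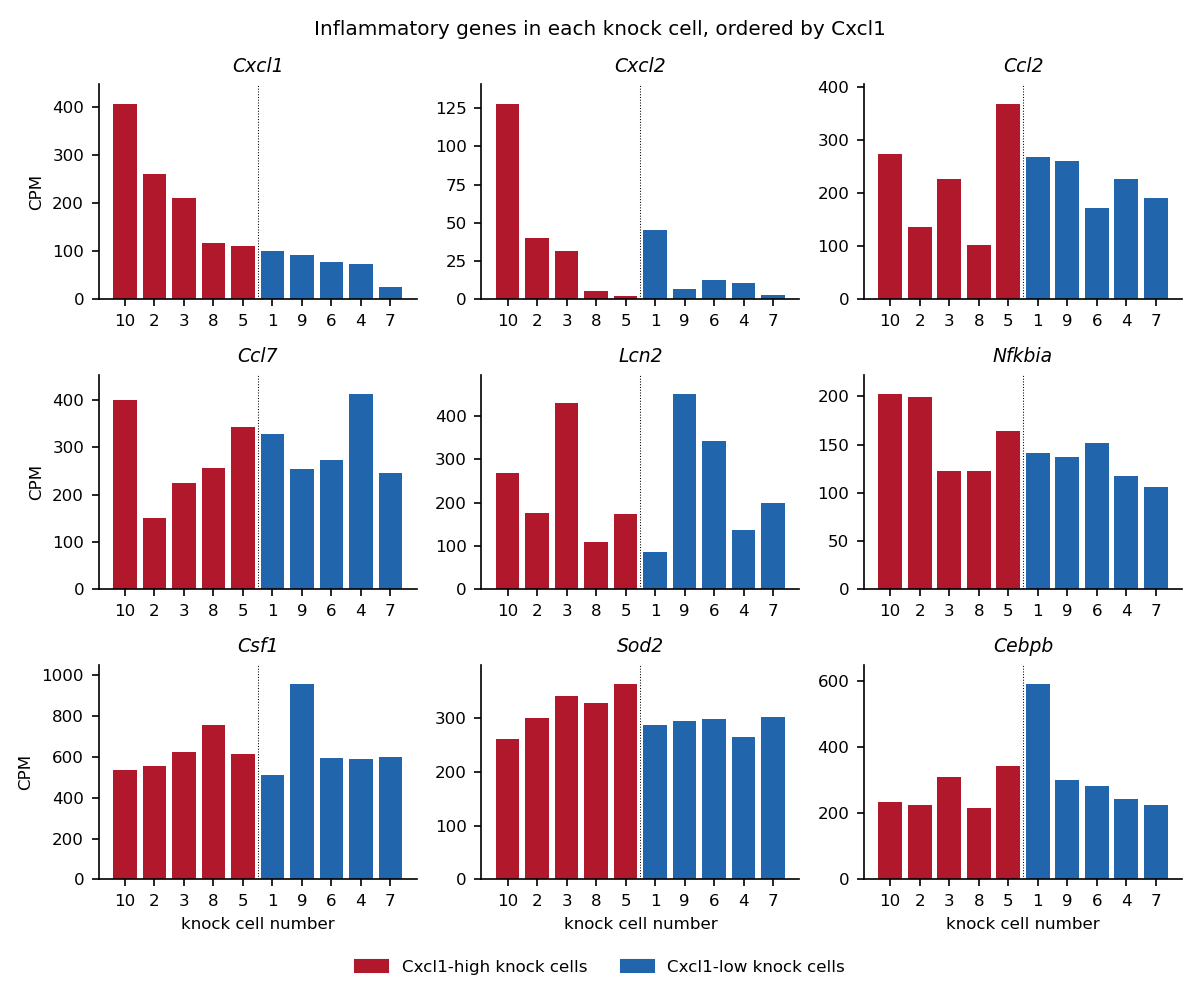
CPM of Cxcl1 and 8 genes of the inflammatory list in each of the 10 knock cells, ordered from most to least Cxcl1. Bars left of the dotted line are the 5 Cxcl1-high cells and bars right of it the 5 Cxcl1-low cells, 1 bar per cell with no error bar. Cxcl2 peaks at 127.7 CPM in knock cell 10, while Ccl2, Ccl7, Lcn2, Csf1 and Sod2 take similar ranges on both sides.

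Members under 20 CPM took both directions and rest on few counts. Of 26 such members with a row in the table, 6 had no count in knock cells and 8 had 1 to 9 counts. The members named here were chosen after their values were seen. Relb, an NF-kB subunit, was at 16.3, 4.43, 42.6, 5.70 and 42.8 CPM in the Cxcl1-high cells and at 5.05, 6.53, 0, 2.18 and 6.45 CPM in the Cxcl1-low cells. Knock cells 10, 3 and 5 were above all others, and the summed counts were 51 in the Cxcl1-high cells and 5 in the Cxcl1-low cells, with 19 counts (4.92 CPM) in the control cells. The log2 ratio of Relb was 2.68 (1.36 to 4.36). Cx3cl1, a membrane-bound chemokine, was at 35.3, 31.0, 21.3, 17.1 and 8.55 CPM in the Cxcl1-high cells and at 5.05, 13.1, 13.0, 8.72 and 12.9 CPM in the Cxcl1-low cells. All Cxcl1-high cells but knock cell 5 were above every Cxcl1-low cell, and the log2 ratio was 1.19 (0.32 to 2.16) on 51 counts in the Cxcl1-high cells and 14 in the Cxcl1-low cells, with 21.2 CPM in the control cells. Irf1, a transcription factor of the interferon response, was lower, with 11 counts in the Cxcl1-high cells and 16 in the Cxcl1-low cells (log2 ratio -1.21, -2.47 to -0.02). The intervals of the following members included 0. The Cxcl1-high cells held more counts in total, so log2 ratios of scaled levels are given beside raw counts. Il6 had 10 counts in the Cxcl1-high cells and 1 in the Cxcl1-low cells (log2 ratio 2.65). Tnf, a cytokine that activates NF-kB, had 11 in the Cxcl1-high cells and 4 in the Cxcl1-low cells (0.79). Tnfaip3, an inhibitor of NF-kB, had 8 counts in the Cxcl1-high cells and 12 in the Cxcl1-low cells (-1.26). Traf1 had 6 counts in the Cxcl1-high cells and 9 in the Cxcl1-low cells (-1.26). Saa3 had 3 in the Cxcl1-high cells and 6 in the Cxcl1-low cells (-1.67). The inhibitor gene Nfkbie had 5 in the Cxcl1-high cells and 6 in the Cxcl1-low cells (-0.94). Il1b, Icam1 and Ptgs2 had no row in the table.

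Genes of the signalling chain to NF-kB were split evenly, a split that rested on knock cell 10. Of the 39 listed, 24 reached 20 CPM, 12 were higher in the Cxcl1-high cells and 12 lower, and the median log2 ratio was 0.01. All genes at 20 CPM had 59.6% higher and a median of 0.08. Without knock cell 10, 7 of the 24 listed genes were higher and 17 lower, with a median of -0.099. All genes at 20 CPM then had 51.1% higher and a median of 0.0097. Cyld, a deubiquitinase that restrains NF-kB, was at 22.7 CPM in the Cxcl1-high cells and 51.1 CPM in the Cxcl1-low cells, a log2 ratio of -1.17 (-1.73 to -0.62). Its range was 14.3 to 35.4 CPM in the Cxcl1-high cells and 26.1 to 71.9 CPM in the Cxcl1-low cells, so the groups overlapped. Sharpin, a subunit of the linear ubiquitin ligase that promotes NF-kB signalling, was lower too (log2 ratio -0.71, -1.15 to -0.26; Spearman correlation -0.71). Tlr4, the receptor for lipopolysaccharide, was at 0.59 (-0.07 to 1.30). Il1rap, a subunit of the interleukin 1 receptor, was at 0.72 (-0.0055 to 1.5).

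Immediate early genes, cytokine and growth factor receptors and the STAT3 list had medians above the 0.08 of all genes, of sizes that depended on the processing. Of 19 immediate early genes, 15 were higher in the Cxcl1-high cells, where 59.6% of all genes at 20 CPM were. Their median log2 ratio was 0.27, which was 0.14 with each cell weighing the same and 0.11 after thinning each knock cell to 153051 counts. Egr1, a growth factor induced transcription factor, was at 220.1, 31.0, 186.4, 165.4 and 171.1 CPM in the Cxcl1-high cells and at 206.9, 71.9, 99.4, 45.8 and 90.3 CPM in the Cxcl1-low cells. In all, 4 of the 5 Cxcl1-high cells were above 4 of the 5 Cxcl1-low cells, and the log2 ratio was 0.93 (0.63 to 1.24). The MAP kinase phosphatase genes Dusp5 and Dusp2 had log2 ratios of 1.13 (0.59 to 1.70) and 1.12 (0.41 to 1.90), and Btg2, an antiproliferative gene, of 1.19 (0.40 to 2.06), from levels of at most 81.3 CPM in a knock cell.

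Of 20 cytokine and growth factor receptors, 15 were higher, with a median of 0.35, where 59.6% of all genes were higher. Without knock cell 10, 9 of 16 were higher and the median was 0.15, and with equal weights 10 of 17 were higher. Of all genes at 20 CPM, 51.1% were higher without that cell and 59.3% with equal weights. Fgfr1, a receptor for fibroblast growth factors, had a log2 ratio of 1.66 (0.94 to 2.46) that rested on the 97.8 CPM of knock cell 10 and was 0.27 without it. It passed the level limit only through the Cxcl1-high cells, at 44.5 CPM against 14.1 CPM in the Cxcl1-low cells. Tnfrsf10b, a death receptor for TRAIL and a p53 target, had 1.13 (0.66 to 1.63). Ifnar1, a chain of the type I interferon receptor, went the other way in every cell. It was at 25.8, 13.3, 26.6, 28.5 and 34.2 CPM in the Cxcl1-high cells and at 35.3, 39.2, 38.9, 39.2 and 54.8 CPM in the Cxcl1-low cells. The groups did not overlap, with knock cells 5 and 1 close together, and 0.344% of all genes at 20 CPM lay below in this way. The log2 ratio was -0.65 (-1.20 to -0.10). The Spearman correlation with Cxcl1 was -0.98 over the knock cells and 0.27 over the control cells. Under other processing of the knock cells it was as weak as -0.54. Ifnar1 was named for the size of its ratio between these knock cells, so a weaker value over other cells is partly set by the choice. The Ifnar1 levels rest on few counts, 3 to 19 in a knock cell.

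Of 11 genes of the STAT3 and acute phase list, 9 were higher, with a median of 0.39, where 59.6% of all genes were higher. Lifr passed the level limit only through the Cxcl1-high cells, at 25.0 CPM against 16.3 CPM in the Cxcl1-low cells. With equal weights 7 of 9 members were higher, against 59.3% of all genes, and without knock cell 10 also 7 of 9, against 51.1%. The median was 0.13 with equal weights and 0.25 after thinning, and the lowest value with a cell left out was 0.20. Stat3 itself had a log2 ratio of 0.63 (0.26 to 1.01) and overlaps Stat5a on the opposite strand. Interferon response genes had 9 of 13 higher and a median of 0.15, where all genes at 20 CPM had 59.6% higher and a median of 0.08. Trim25, a ubiquitin ligase of the RIG-I pathway, had 1.02 (0.52 to 1.54) and 0.42 without knock cell 10. B2m, the light chain of MHC class I, was lower at -0.39 (-0.51 to -0.28). After thinning each knock cell to 153051 counts, the interferon median was -0.02, with 6 of 13 higher. All genes then had 57.0% higher and a median of 0.078.

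**Figure D2:**
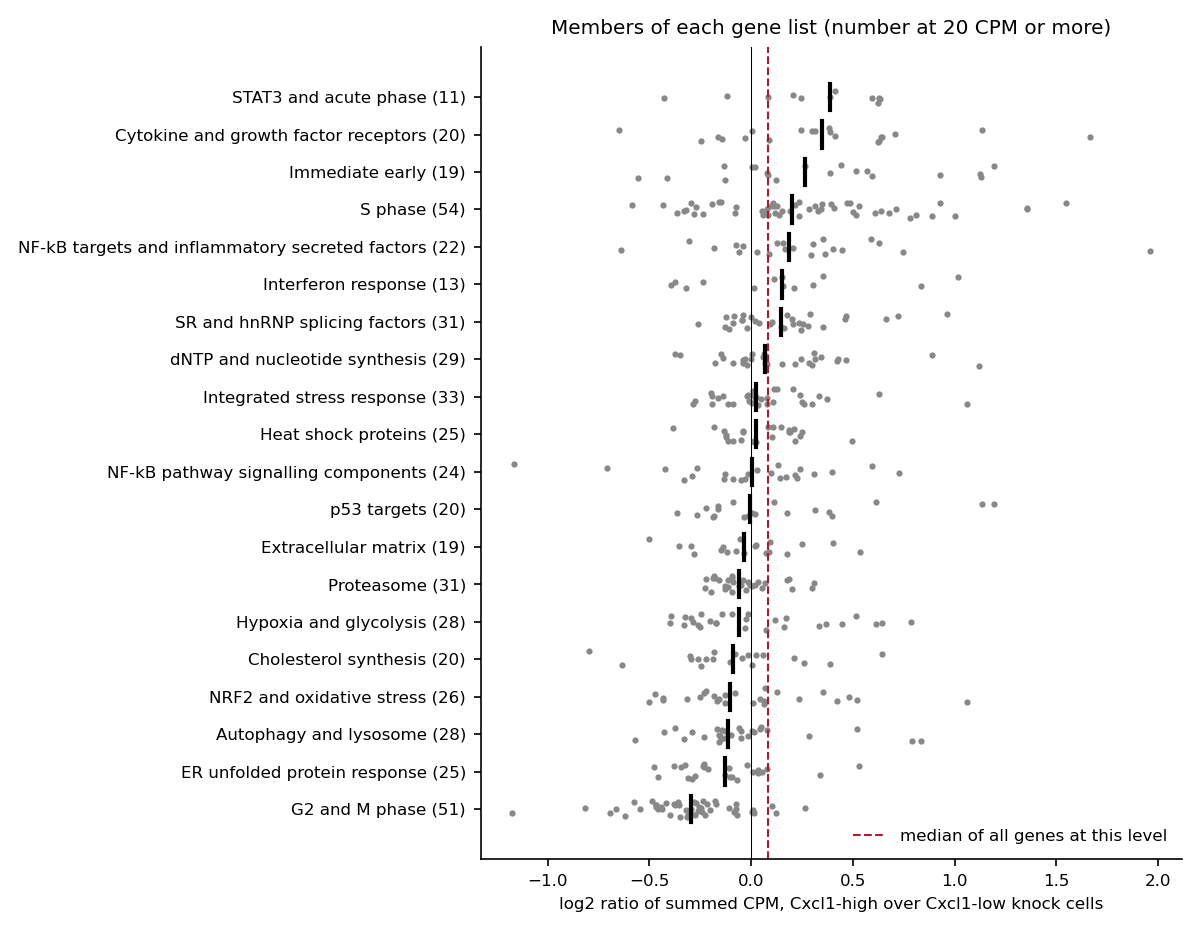
Log2 ratio of the summed CPM, Cxcl1-high over Cxcl1-low knock cells, for each member of 20 gene lists that averaged 20 CPM or more. Each dot is 1 gene, each black bar the list's median, and the dashed line the median of all 8135 genes at that level (0.08). Medians run from 0.39 (STAT3 and acute phase) to -0.30 (G2 and M phase).

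Most S phase genes were higher in the Cxcl1-high cells with knock cell 10 included but not without it, and most G2 and M phase genes were lower. Of 54 S phase genes, 40 were higher in the Cxcl1-high cells, by a median log2 ratio of 0.20. All genes at 20 CPM had 59.6% higher and a median of 0.08. Dtl, which targets the licensing factor Cdt1 for destruction, was at 134.5, 66.4, 74.6, 82.7 and 53.5 CPM in the Cxcl1-high cells and at 35.3, 19.6, 43.2, 43.6 and 25.8 CPM in the Cxcl1-low cells. Every Cxcl1-high cell was above every Cxcl1-low cell, as in 0.836% of all genes at 20 CPM. The log2 ratio was 1.36 (0.89 to 1.84), or 0.94 without knock cell 10. Dtl stood at 113.7 CPM in the control cells, above both groups, and the Spearman correlation with Cxcl1 was 0.81 over the knock cells and 0.02 over the control cells. Dtl was picked for its ratio between these knock cells, so a lower value over other cells is set by the choice.

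Ccne1, the cyclin that starts S phase, was at 168.5, 48.7, 21.3, 57.0 and 141.1 CPM in the Cxcl1-high cells and at 35.3, 13.1, 103.7, 32.7 and 25.8 CPM in the Cxcl1-low cells. It was high in knock cells 10, 5 and 6, which lie in both groups, and its log2 ratio was 1.36 (0.93 to 1.81). Ccne2 had a log2 ratio of 1.0 (0.48 to 1.55) and Ung, which removes uracil from DNA, of 1.55 (0.80 to 2.37), but without knock cell 10 these were 0.31 and 0.46. Without that cell the S phase median was -0.21 and 22 of 53 genes were higher, where all genes had 51.1% higher and a median of 0.0097. The summed S phase level was 6299, 2758, 2673, 3924 and 4208 CPM in the Cxcl1-high cells and 2230, 3071, 4404, 4794 and 3380 CPM in the Cxcl1-low cells. The direction of this list was therefore that of knock cell 10, and the Spearman correlation of the sum with Cxcl1 was -0.09.

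Of 51 G2 and M phase genes, 45 were lower in the Cxcl1-high cells, by a median log2 ratio of -0.30. All genes at 20 CPM had 40.4% lower and a median of 0.08. In the list 1 gene was 2-fold lower, where 0.553% of all genes were. That gene was Nusap1, a spindle protein, at 17.7, 137.2, 42.6, 128.3 and 49.2 CPM in the Cxcl1-high cells and at 95.9, 91.5, 90.8, 187.5 and 132.2 CPM in the Cxcl1-low cells. Knock cells 10, 3 and 5 were low and knock cells 2 and 8 lay within the Cxcl1-low range, and the log2 ratio was -1.17 (-1.51 to -0.84). Ect2, an exchange factor of cytokinesis, had -0.82 (-1.13 to -0.51), Cenpf, a kinetochore protein, -0.69 (-0.90 to -0.49), and Hmmr, a spindle protein, -0.66 (-0.91 to -0.41). The summed level was 7107, 13629, 7130, 11515 and 6888 CPM in the Cxcl1-high cells and 8108, 9474, 9275, 11962 and 11184 CPM in the Cxcl1-low cells. Both the lowest sums and the highest were in Cxcl1-high cells. With each cell weighing the same, 21 of 51 genes were higher and the median was -0.12, and after thinning 19 were higher with a median of -0.13. Of all genes at 20 CPM, 59.3% were higher with equal weights and 57.0% after thinning.

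**Figure D3:**
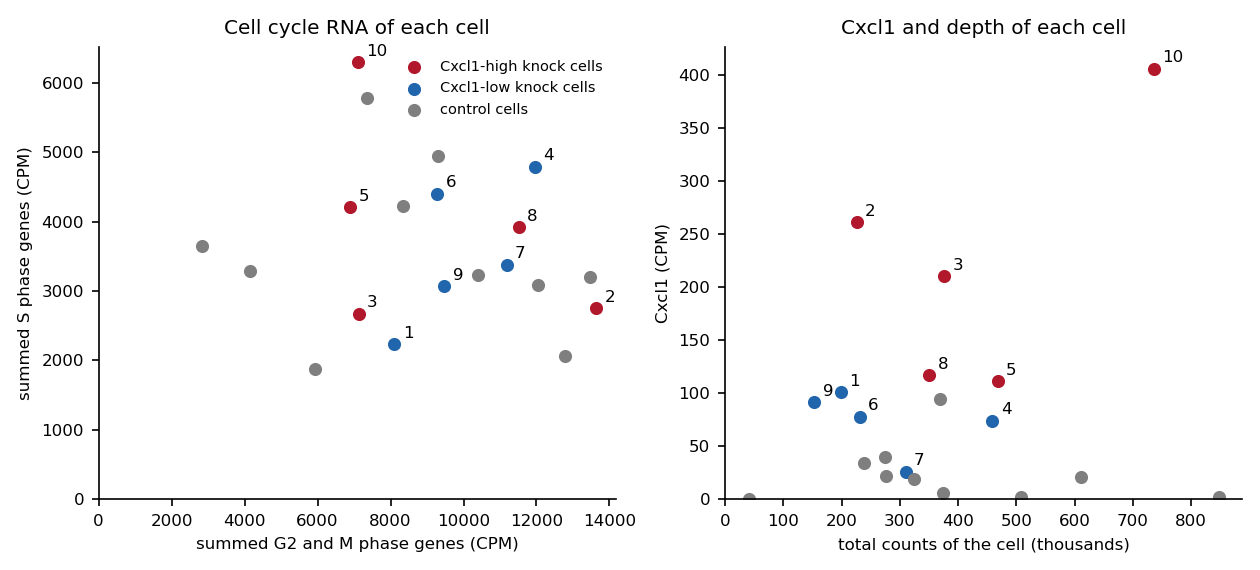
Left, summed CPM of S phase genes against that of G2 and M phase genes for each cell, with knock cells numbered. Right, Cxcl1 in CPM against the total counts of the cell. Knock cell 10 has the highest S phase sum (6299 CPM), the most Cxcl1 (406.3 CPM) and the most counts of any knock cell (735871).

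Nucleotide synthesis, the step that Rrm2 serves, stood at the background. Of 29 genes, 18 were higher in the Cxcl1-high cells, where 59.6% of all genes were, and the median log2 ratio was 0.07, against 0.08 for all genes. Dctd, which deaminates dCMP, had 1.12 (0.50 to 1.78), and Pfas, of purine synthesis, 0.89 (0.59 to 1.20). Genes of p53 targets were balanced, with 10 of 20 higher and a median of -0.01. Its best known member, the cell cycle inhibitor Cdkn1a, had a log2 ratio of -0.04 (-0.20 to 0.12) and was looked up after the list was seen to be balanced. Splicing factors had 20 of 31 higher and a median of 0.14. In Hnrnpf every Cxcl1-high cell (248.1 to 333.6 CPM) was above every Cxcl1-low cell (95.1 to 241.9 CPM), by a narrow margin. That was so in 0.836% of all genes at 20 CPM. The log2 ratio of Hnrnpf was 0.47 (0.26 to 0.68), and its lowest value under other settings was 0.18.

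Ribosomal protein and mitochondrially encoded RNA was lower in the Cxcl1-high cells, and it moved with depth. Of all genes at 20 CPM, 40.4% were lower. Of 83 ribosomal protein genes, 78 were lower, by a median log2 ratio of -0.26, and of 14 mitochondrially encoded genes 13 were lower, by -0.33. Without knock cell 10 these medians were -0.082 and -0.18, with 14 of 83 and 2 of 14 genes higher. All genes at 20 CPM then had 51.1% higher and a median of 0.0097. Ribosomal protein genes held 4.26% to 7.60% of the counts of a Cxcl1-high cell and 5.73% to 9.08% of those of a Cxcl1-low cell, against 4.03% to 10.6% in the control cells. Mitochondrially encoded genes held 0.604% to 1.20% in the Cxcl1-high cells and 0.788% to 1.38% in the Cxcl1-low cells. Over the knock cells the Spearman correlation with the total count was -0.94 and -0.93 for these shares, and with Cxcl1 -0.15 and -0.33. After thinning the medians were -0.24 and -0.24, but thinning does not undo a limit on counts of a gene. A correction for identifier collisions gave medians of -0.21 and -0.30, with 78 of 83 and 13 of 14 genes lower. It assumed identifiers of 5 bases, a length that the labels do not state, and the part of such a limit was not tested further.

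Abundant chaperone and redox genes leaned the same way, and their sums too were ranked by depth. Of 25 genes of the unfolded protein response 18 were lower, by a median of -0.13, where 40.4% of all genes were lower. Hspa5, the main ER chaperone, was at 1306 CPM in the Cxcl1-high cells and 1816 CPM in the Cxcl1-low cells (log2 ratio -0.48, -0.55 to -0.40). Without knock cell 10 the median of the list was -0.062, against 0.0097 for all genes, and the log2 ratio of Hspa5 was -0.23. Its level was 834.4 CPM in knock cell 10, the deepest, and 2960 CPM in knock cell 9, the shallowest, and 1179 CPM over the control cells. The Spearman correlation of the list's sum with total count was -0.88, and for the NRF2 list (14 of 26 lower, median -0.10) it was -0.95. The part of depth in these differences was not tested further.

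The remaining lists had medians from -0.11 to 0.02, where all genes at 20 CPM had 40.4% lower and a median of 0.08. Autophagy and lysosome genes had 19 of 28 lower (median -0.11), cholesterol synthesis 13 of 20 lower (-0.09), hypoxia and glycolysis 17 of 28 lower (-0.06), and proteasome genes 21 of 31 lower (-0.06). The summed autophagy and lysosome level had a Spearman correlation of -0.59 with Cxcl1 and -0.24 with total count over the knock cells. Extracellular matrix genes had 10 of 19 lower (-0.04), while integrated stress response genes had 21 of 33 higher (0.02) and heat shock proteins 15 of 25 higher (0.02). Slc7a11, the cystine transporter in both the stress and NRF2 lists, had the largest ratio among these, 1.06 (0.52 to 1.64), and no count in knock cell 2.

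Outside the lists, the largest higher ratios belonged to genes of varied roles. Mdn1 (chr4:32657119-32775217, plus strand), a giant AAA ATPase of large ribosomal subunit assembly, was at 101.9, 53.1, 103.8, 82.7 and 42.8 CPM in the Cxcl1-high cells and at 40.4, 19.6, 17.3, 39.2 and 29.0 CPM in the Cxcl1-low cells. The groups did not overlap, with knock cells 5 and 1 close together, and the log2 ratio was 1.39 (0.89 to 1.91). The Spearman correlation of Mdn1 with Cxcl1 was 0.84 over the knock cells, for which it was picked, and -0.47 over the control cells. Shmt1, which makes one-carbon units for nucleotide synthesis, was at 122.3, 70.8, 82.5, 85.5 and 83.4 CPM in the Cxcl1-high cells and at 30.3, 26.1, 56.2, 48.0 and 32.3 CPM in the Cxcl1-low cells. Its groups did not overlap either, with a log2 ratio of 1.23 (0.80 to 1.69). Socs6, a suppressor of cytokine signalling, was at 70.7, 57.5, 101.2, 59.9 and 62.0 CPM in the Cxcl1-high cells and at 25.2, 26.1, 21.6, 34.9 and 35.5 CPM in the Cxcl1-low cells. Its lowest Cxcl1-high cell was further above its highest Cxcl1-low cell than in Mdn1 or Shmt1, with a log2 ratio of 1.23 (0.72 to 1.76) that was also 1.23 without knock cell 10. Shmt1 overlaps Smcr8 on the opposite strand, and Socs6 overlaps unnamed gene models on both strands.

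The others of the 10 largest higher ratios overlapped between groups, apart from Dtl above. Slc5a3, a myo-inositol transporter that shares its locus with Mrps6, had a log2 ratio of 1.22 (0.81 to 1.65), and Gdpd1, a phosphodiesterase, of 1.18 (0.72 to 1.67). Tsku, a secreted small proteoglycan, had 1.12 (0.62 to 1.64) and Ncs1, a neuronal calcium sensor, 1.11 (0.73 to 1.52). With any 1 knock cell left out, these 4 genes had log2 ratios between 0.84 and 1.75. Part of this was set by the choice, since they were picked by size of ratio. The rule also asked for a log2 ratio of at least 0.5 without the highest cell. Under the other settings their lowest values were 0.28 (Ncs1), 0.54 (Slc5a3), 0.58 (Tsku) and 0.80 (Gdpd1).

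The largest lower ratios included several genes of cell division, and in none of the 10 were the groups apart in every cell. Iqgap3, a scaffold of dividing cells, was at 39.4, 62.0, 32.0, 45.6 and 27.8 CPM in the Cxcl1-high cells and at 20.2, 52.3, 112.4, 87.2 and 106.4 CPM in the Cxcl1-low cells. Knock cell 1 was the lowest of all, against the direction of its group, and the log2 ratio was -1.08 (-1.5 to -0.65). Trim59, a ubiquitin ligase gene, had -1.08 (-1.52 to -0.66) and -0.63 without knock cell 10, where it was at 10.9 CPM. Cdkn2d, an inhibitor of Cdk4 and Cdk6, had -0.94 (-1.28 to -0.61), and Haus8, of the augmin complex that builds spindles, -0.96 (-1.42 to -0.51). Tcf7l2, a transcription factor of Wnt signalling, had -1.0 (-1.41 to -0.60) with 206.9 CPM in knock cell 1, and -0.61 without that cell. Snrnp25 of the minor spliceosome (-1.0, -1.44 to -0.56), the small GTPase gene Rras (-0.97, -1.41 to -0.54), the dehydrogenase gene Dhrs7 (-0.93, -1.35 to -0.52) and the linker histone gene H1f4 (-0.96, -1.34 to -0.58) complete the 10. H1f4 has near-identical copies, among which counts may be divided.

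**Figure D4:**
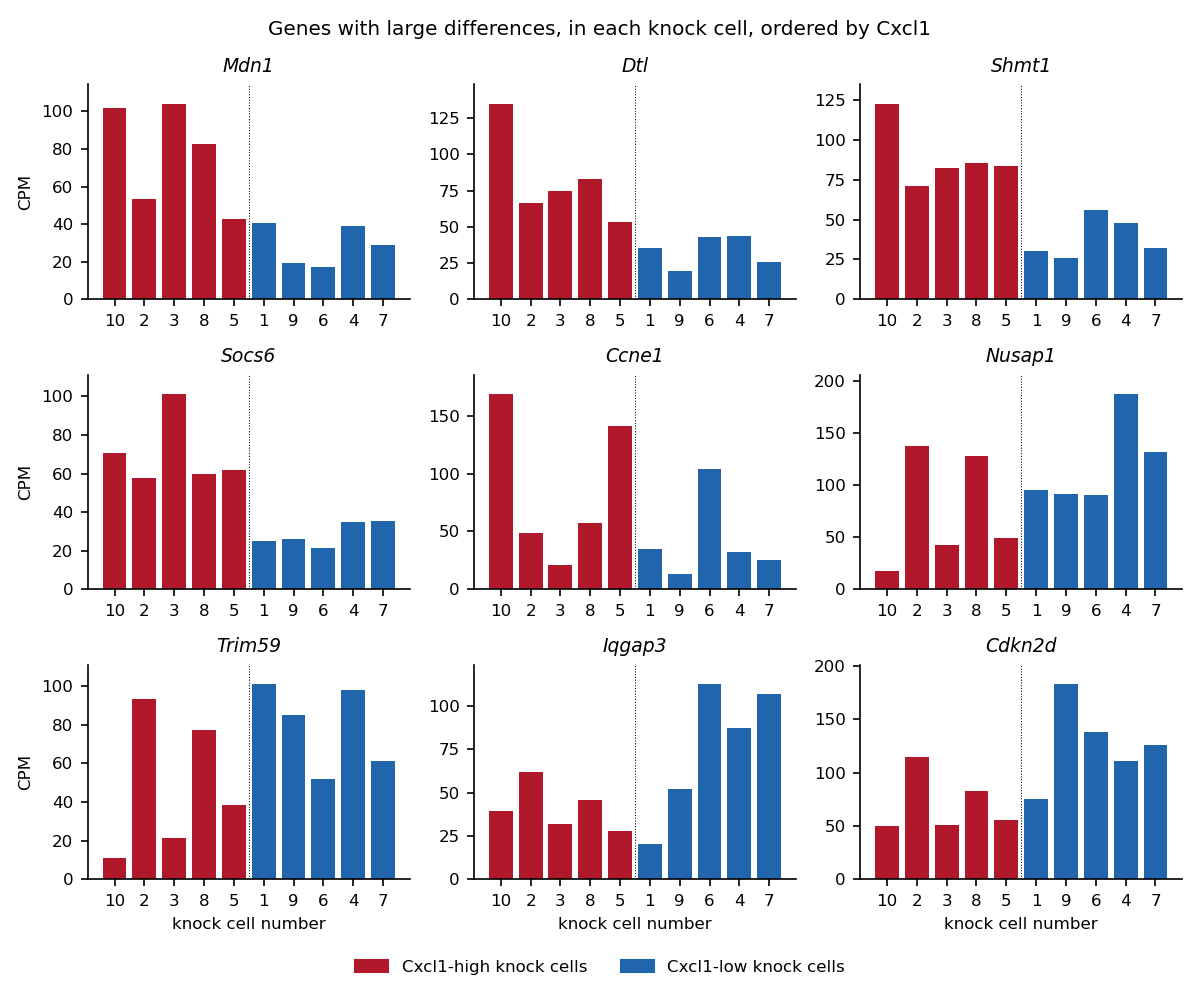
CPM of 9 genes with large ratios in each of the 10 knock cells, ordered from most to least Cxcl1, with the 5 Cxcl1-high cells left of the dotted line and 1 bar per cell with no error bar. In Mdn1, Dtl, Shmt1 and Socs6 every Cxcl1-high cell is above every Cxcl1-low cell. In Ccne1, Nusap1, Trim59, Iqgap3 and Cdkn2d the groups overlap.

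A small number of genes ranked the knock cells much like Cxcl1. Among genes at 50 CPM, 15 (0.298%) had a Spearman correlation with Cxcl1 of at least 0.8 over the 10 knock cells and 7 (0.139%) of at most -0.8. These counts are a description over cells of 1 sample. The 5 highest were Dlgap4 (0.88), Nab1 (0.87), Utp6 (0.85), Mpnd (0.85) and Mdn1 (0.84). They were picked for these values among all genes, so lower values in other cells are set by the choice, and those over the control cells were 0.35, -0.50, 0.03, 0.30 and -0.47. Under other processing of the same knock cells their lowest values were 0.60, 0.62, 0.78, 0.54 and 0.79, so the rankings depended on the processing. Dlgap4, a scaffold of the postsynaptic density, was at 160.4, 106.2, 109.2, 105.5 and 109.1 CPM in the Cxcl1-high cells and at 75.7, 98.0, 64.8, 93.7 and 51.6 CPM in the Cxcl1-low cells. Nab1, which represses Egr1 activity, had a log2 ratio of 0.70 (0.35 to 1.06), and Utp6, of small ribosomal subunit assembly, of 0.61 (0.25 to 0.97).

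The 5 lowest were the tubulin gene Tubb2a (-0.85), the proton pump subunit gene Atp6v0e (-0.84), the proapoptotic gene Bid (-0.82), the mitochondrial ribosomal protein gene Mrpl27 (-0.82) and the cyclophilin gene Ppie (-0.81). They were picked in the same way, and over the control cells they had 0.14, 0.03, 0.13, 0.42 and -0.09. Under other processing of the same knock cells their weakest values were -0.60, -0.70, -0.68, -0.38 and -0.27. Their differences were small: Tubb2a had a log2 ratio of -0.47 (-0.75 to -0.19) and Bid of -0.34 (-0.54 to -0.14), with every Cxcl1-high cell (199.7 to 248.1 CPM) below every Cxcl1-low cell (270.9 to 306.9 CPM). Of the inflammatory members at 20 CPM or more, Nfkbia had the highest Spearman correlation over knock cells (0.66), and the list's median Spearman correlation was 0.07, against 0.08 over the control cells.

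Of the 120 genes chosen by the rule for naming genes, 17 overlap another annotated gene on their own strand and 45 one on the opposite strand. Overlaps on the opposite strand include Ccl2, Cebpb, Nusap1, Cenpf, Ect2, Haus8, Cyld, Fgfr1, B2m, Dlgap4, Mpnd and Bid. Without knowledge of the strand used in counting, their reads and those of the partners cannot be told apart.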

How the data were processed

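Single L929 cells were measured by CBTi-seq, and the authors deposited counts of unique molecular identifiers per gene for 10 knock and 10 control cells. The submitters' processing notes name FastQC, Picard, STAR 2.7.11b and the builds GRCm38 and GRCh38. The labels state no counting tool, use of strand, filter or identifier length. The 3' tables were not used here, and 0 columns of other samples were met.

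From the counts, CPM used each column's total. Groups were compared by summed counts, with exact Poisson 95% intervals for levels and exact conditional intervals for ratios, which cover counting error only. All columns are cells of 1 sample, so no test was run. Single genes needed a mean level of 50 CPM and list members 20 CPM. The mean was over both groups, so a gene could pass through its level in 1 group alone. Totals were 153051 to 735871 counts in knock cells, and 22 gene symbols that had become dates (0.203% of knock counts) carry no name. The rule for named genes was Rrm2, 10 genes each way by size of ratio (a count in at least 4 of the 5 cells of the higher group, and a log2 ratio of at least 0.5 without that group's highest cell), up to 4 members of each list with the largest ratios, the 5 highest and 5 lowest rank correlations with Cxcl1, and the inflammatory members at 20 CPM, leaving out unnamed gene models. Members and lists were chosen with earlier results of these data known. Alternatives were TMM (edgeR 4.0.16) and median-of-ratios factors (DESeq2 1.42.0), other totals, weights, level limits and group sizes, thinning, a correction for identifier collisions and leaving out each cell. Scripts ran in Python 3.11.15 and R 4.3.3 and were tested on simulated data. Promoter windows are from RefSeq (GRCm38.p6) and gene positions from GENCODE vM21.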

Additional observations from a re-analysis of the deposited data

Results flagged for a closer look

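In 4 of 52 groups of 5 cells examined, 1 cell lay far from the others of its group, measured by its gap to the nearest cell over the range of the group. Chance gives this in about 1 in 20 groups. Cxcl2 stood at 45.4 CPM in knock cell 1, where the next Cxcl1-low cell had 13.0 CPM. Cebpb stood at 590.3 CPM in the same cell, and the next Cxcl1-low cell had 300.6 CPM. Csf1 stood at 953.9 CPM in knock cell 9, the shallowest, and the next Cxcl1-low cell had 599.8 CPM. Tnip1 stood at 107.4 CPM in knock cell 10, the deepest, and the next Cxcl1-high cell had 61.2 CPM.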

How the results depend on the processing

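No paired analysis was possible because no test was run: all columns are cells of 1 sample, and numbers shared by knock and control columns only name cells. Genes at least 2-fold higher numbered 17, and 8 with TMM, 8 with median-of-ratios factors, 30 after thinning to 153051 counts, 136 at 20 CPM, 1157 with no level limit and 29 for the 4 highest over the 4 lowest cells. Genes 2-fold lower numbered 5, and 9, 10, 3 (each cell weighing the same), 45, 1024, 10 (4 over 4) and 2 for the 3 highest over the other 7, a setting chosen after seeing the data. Genes with all Cxcl1-high cells above numbered 45, and 18 (median-of-ratios), 21 (thinned), 68 (20 CPM), 91 (no limit) and 99 (4 over 4). Those with all below numbered 23, and 13 (thinned), 42 (no limit), 57 (4 over 4) and 11 (3 over 7). With each cell left out in turn these counts ran 14 to 46, 4 to 11, 57 to 100 and 30 to 50. The inflammatory median of 0.19 was 0.10 with median-of-ratios factors, 0.13 with equal weights and 0.11 after thinning, and 0.053 to 0.31 with each cell left out. The S phase median of 0.20 was 0.15 (TMM), 0.11 (median-of-ratios), 0.14 (equal weights), 0.14 (thinned), 0.13 (members at 50 CPM), 0.085 (4 over 4) and 0.29 (3 over 7), and -0.21 to 0.42 with each cell left out. It was below 0 without knock cell 10. The G2 and M phase median of -0.30 was -0.35 (TMM), -0.39 (median-of-ratios), -0.12 (equal weights), -0.13 (thinned) and -0.24 (3 over 7), and -0.42 to -0.18 with each cell left out. The median of all genes at 20 CPM was 0.08, and 0.03 (TMM), -0.0062 (median-of-ratios), 0.0755 (equal weights) and 0.078 (thinned). TMM and median-of-ratios factors shift the log2 ratio of every gene alike, so list medians kept their distance from that of all genes. The cause of the other moves was not tested. Of 2400 log2 ratios of named genes under the alternatives, 2283 stayed within their counting interval. Of 400 medians of the other gene sets, 175 moved by more than the counting error of the set's summed ratio. Of 1680 Spearman correlations of named genes with Cxcl1, 459 moved by more than a set margin. Shallow cells limit the genes at low levels.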

Other observations

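Genes that assemble ribosomes were mostly higher in the Cxcl1-high cells. This list of 109 assembly factors was written after Mdn1, Utp6 and other genes with large ratios had been seen, so its counts are a description and support nothing. Of 107 at 20 CPM, 93 were higher and 14 lower, where 59.6% of all genes were higher, and the median log2 ratio was 0.26, where all genes had 0.08. For the 3 highest over the other 7 cells, 77 were higher and 30 lower. The summed level was 15439, 15245, 14824, 16254 and 15070 CPM in the Cxcl1-high cells and 11660, 12832, 11847, 13861 and 14125 CPM in the Cxcl1-low cells. The groups did not overlap, and control cells ran from 7409 to 16316 CPM. The Spearman correlation of the sum over the 10 knock cells was 0.67 with Cxcl1 and 0.56 with total count.

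Nop2, an rRNA methyltransferase, was at 180.5 CPM in the Cxcl1-high cells and 120.6 CPM in the Cxcl1-low cells, a log2 ratio of 0.58 (0.31 to 0.85). Dkc1, the pseudouridine synthase dyskerin, was at 302.9 CPM in the Cxcl1-high cells and 224.9 CPM in the Cxcl1-low cells (0.43, 0.23 to 0.63). In both, as in Mdn1, Bms1, Tsr1, Aatf, Gar1 and Pes1, every Cxcl1-high cell was above every Cxcl1-low cell, as in 0.836% of all genes at 20 CPM. Surf6 went the other way at -0.55 (-1.01 to -0.08). With each cell left out the median was 0.23 to 0.29, and under 6 other settings 0.12 to 0.29. Among control cells split by Cxcl1, 14 of 106 were higher and the median was -0.38, where all genes had -0.07.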
